A study of Homo sapiens with 12 samples.

Results

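The imprinted growth genes described here are 10 genes known from fetal liver and hepatoma, chosen by name: IGF2, H19, PEG10, DLK1, MEG3, CDKN1C, MEST, PEG3, SGCE and PLAGL1. Of these 10, 8 have a row among the 35984 genes of the count table, and 5 of the 8 (IGF2, PEG10, PEG3, MEST and SGCE) passed the filter on low counts that left 16118 genes for testing. H19 and MEG3, which are long non-coding RNAs, are not analysed here, since the table pairs no row with either symbol and holds 105 of the 18330 genes that RefSeq classes as long non-coding RNA. The 5 genes that passed are those with enough counts, and they do not stand for all 10.

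The RNA came from HepG2, an established human hepatoma cell line. Control cells (CTL) stably express control shRNAs, and double knock-down cells (DKD) stably express shRNAs against macroH2A1 and macroH2A2, delivered in both cases as retrovirally integrated cassettes, per the labels. After a night in medium with 0.5% serum, each line received TNFα, an inflammatory cytokine, at 20 ng/mL, or only the vehicle (called untreated), for 24 h, with 3 libraries in each of the 4 groups. Nothing in the labels tells if a group's libraries stem from separate cultures, and the p-values cover the variation among these 12 libraries alone, which could be technical. Nor do they say whether a line is a pool or a clone, so an effect of the knock-down and another difference between the lines cannot be told apart.

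An imprinted gene is transcribed mainly from the copy inherited from one parent, under the control of DNA methylation that is set in the germ line and kept through development. Many imprinted genes act on growth: those expressed from the father's copy, such as IGF2, PEG10, MEST, PEG3, SGCE, DLK1 and PLAGL1, include promoters of fetal growth, and those expressed from the mother's copy, such as H19, MEG3 and CDKN1C, include growth restrainers. The fetal liver expresses IGF2 strongly, adult hepatocytes much less, and liver tumours often regain it. MacroH2A proteins are variants of histone H2A with a large additional domain that are associated mostly with silent chromatin. Gene counts do not separate the parental copies, so nothing below measures imprinting itself.

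Library totals ran from 30955080 to 42094144 estimated counts, and levels are given as CPM, which scales a count to its library's total adjusted by a TMM factor (trimmed mean of M-values). The target transcripts were low in DKD cells, with MACROH2A1 at 19.5% and 20.7% of its CTL mean without and with TNFα, and MACROH2A2 at 8.83% and 8.55%. Markers of hepatocytes and hepatoma were abundant in every library, for example AFP at 4496 to 11859 and HNF4A at 236 to 372 CPM. The summed CPM of 6 fibroblast markers was at most 1.63, of 4 endothelial markers at most 2.49 and of 3 placental markers at most 0.0720. Of 5 blood markers CD3E was at 0 throughout and LYZ stood at 351 to 1247 CPM, and the list's sum was 352 to 398 in untreated and 946 to 1060 in TNFα-treated CTL cells. On the first principal component (33.0% of the variance) both DKD libraries numbered 1 stood apart, at 83.7 without and 53.9 with TNFα against -41.5 to 18.2 in the other 10, and values without both are given beside the results that they move most. Libraries of equal number deviated from their group means together in all 4 pairwise comparisons (r of 0.193 to 0.695 across genes). Deviations cancel within a group, so a shift of the libraries numbered 1 alone would also make r positive for the other numbers. Unlike numbers were not compared. The test uses a fit with no term for the replicate number (the unblocked fit), and values fitted with that number as a block (the blocked fit) stand beside it where a call differs.

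PEG10 (chromosome 7, 94656325 to 94669695, plus strand) derives from a retrotransposon and encodes a protein needed for the placenta that is often abundant in hepatocellular carcinoma. In untreated CTL cells it stood at 1591, 1961 and 1627 CPM in replicates 1 to 3, and with TNFα at 1005, 1053 and 819. In untreated DKD cells it stood at 2015, 2759 and 2583 CPM, and with TNFα at 1260, 1488 and 1344. Every TNFα library lay below every untreated library of its line, and every DKD library lay above every CTL library of the same treatment. Such separation, in either direction, was also shown by 25.1% of all genes for TNFα in CTL and 12.3% in DKD cells. Between the lines it was shown by 21.7% untreated and 25.4% with TNFα.

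TNFα lowered PEG10 to 55.6% of the untreated mean in each line. The log2 fold change was -0.85 in CTL cells (SE 0.14, adjusted p = 0.00766 by edgeR's quasi-likelihood test with Benjamini-Hochberg adjustment over 16118 genes) and -0.85 in DKD cells (SE 0.14, adjusted p = 0.00896). PEG10 was thus the 1 of 5 tested genes called in each of these comparisons, where 0.726% and 0.254% of all genes were called lower and 1.90% and 1.54% higher. The call in DKD cells was lost without the TNFα-treated DKD library numbered 3 (adjusted p = 0.0517) and in a fit of the 2 groups alone (adjusted p = 0.0947), both at a log2 fold change of -0.86. The difference between the 2 responses, the interaction, was 0.00 on the log2 scale with a 95% interval of -0.42 to 0.42.

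Between the lines, PEG10 was at 142% of the CTL mean in DKD cells with and without TNFα, which missed the threshold in the unblocked fit. The log2 fold change was 0.51 (SE 0.14) in both treatments, with an adjusted p of 0.0605 untreated and 0.0515 with TNFα. In the blocked fit the same fold changes passed (adjusted p = 0.00509 and 0.00426), and DESeq2 called both (adjusted p = 0.0178 and 0.0141). They also passed without both DKD libraries numbered 1, at 0.63 untreated (adjusted p = 0.00807) and 0.57 with TNFα (adjusted p = 0.0130). The summed CPM of the 9 hepatocyte and hepatoma markers was 20000 to 21967 in untreated and 16567 to 18593 in treated CTL cells, and 24981 to 37888 in untreated and 19366 to 25754 in treated DKD cells. ALB, the albumin gene, had the widest range of the 9, with group means of 473 and 250 CPM in CTL and 6243 and 2548 in DKD cells, without and with TNFα. Of the 9 means 9 were higher in DKD cells in each treatment (3 called), and 6 were lower and 3 higher with TNFα in each line (2 called lower in CTL and 3 in DKD cells). Their part in the result was not tested.

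SGCE (chromosome 7, 94584980 to 94656133, minus strand) encodes epsilon-sarcoglycan, a membrane protein, and starts 191 bases from PEG10 on the opposite strand. It stood at 35.2, 32.8 and 29.2 CPM in untreated CTL cells and at 32.0, 27.3 and 26.1 with TNFα. In DKD cells it stood at 43.0, 33.96 and 32.1 CPM untreated and at 35.3, 28.7 and 26.4 with TNFα. The groups overlapped in all 4 comparisons, although within pairs of equal number SGCE was lower with TNFα in 3 of 3 pairs of each line. Its log2 fold change with TNFα was -0.19 in CTL (SE 0.15, adjusted p = 0.682) and -0.27 in DKD cells (SE 0.15, adjusted p = 0.631), and the latter passed in the blocked fit (-0.27, SE 0.07, adjusted p = 0.0350). Between the lines it did not pass with either fit, at 0.17 untreated (95% interval -0.16 to 0.49) and 0.08 with TNFα (-0.24 to 0.41). Without both DKD libraries numbered 1 these values were 0.029 and -0.041.

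The ratio of PEG10 to SGCE within a library, both in CPM, was 45.3, 59.9 and 55.6 in untreated CTL libraries and 31.4, 38.5 and 31.4 with TNFα. In DKD libraries it was 46.9, 81.2 and 80.5 untreated and 35.7, 51.9 and 50.8 with TNFα. The untreated and treated ranges were separate in CTL cells and overlapped in DKD cells through the library numbered 1. The ratio describes 3 libraries a group and was given no test.

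**Figure D1:**
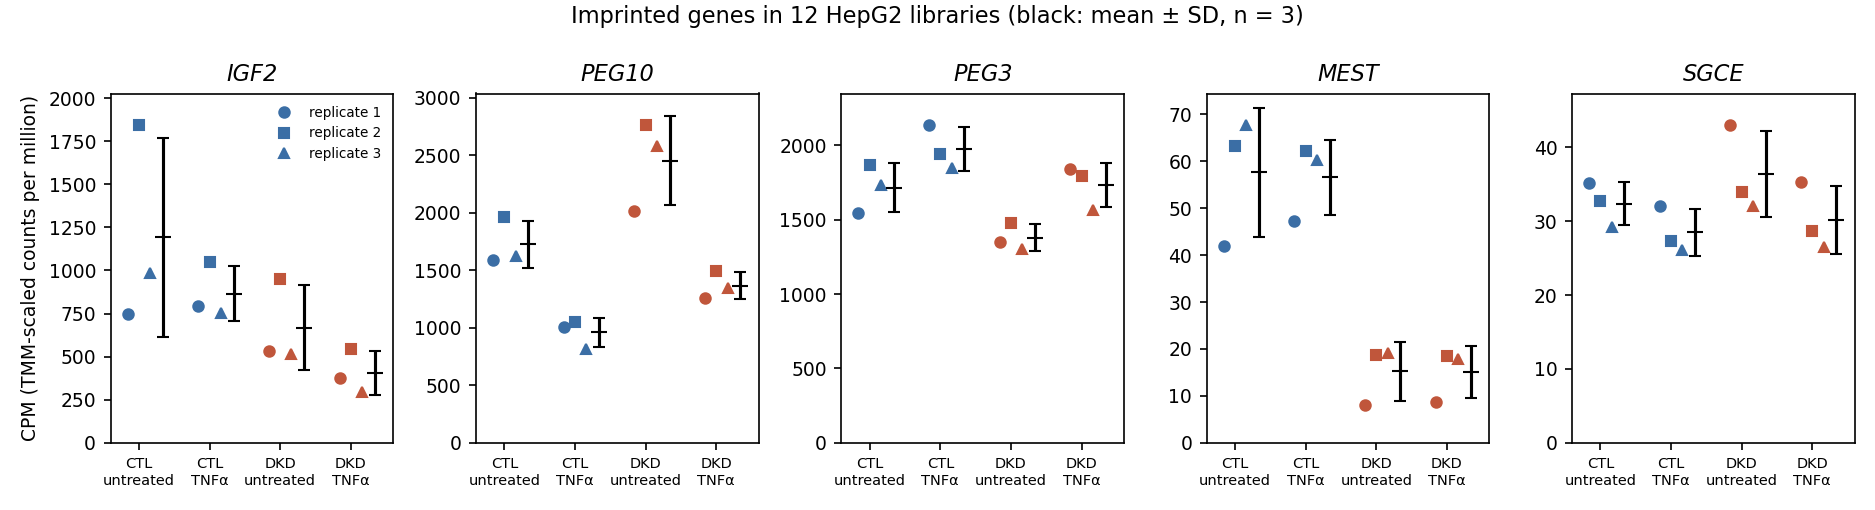
CPM of the 5 tested imprinted genes (vertical axes, each from 0) in each of 12 libraries, by group along the horizontal axis; marker shape gives the replicate number and black bars the mean ± SD of 3 libraries. PEG10 was lower with TNFα in both lines, MEST was lower in DKD cells in both treatments, and the IGF2 library numbered 2 was the highest of each group.

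MEST (PEG1, chromosome 7, 130486175 to 130506465, plus strand) encodes a protein of the alpha/beta hydrolase fold and is used as a marker of fetal mesodermal tissue. Its transcripts start at several places spread over 5910 bases, and the gene-level count sums them, so the counts do not say which start was used. To show what these starts look like, the 250 bases before the most upstream and before the most downstream RefSeq start (GRCh38.p14, plus strand, 5′ to 3′) are given, with CpG dinucleotides (CG) in capitals.
MEST upstream start, chr7:130485925-130486174: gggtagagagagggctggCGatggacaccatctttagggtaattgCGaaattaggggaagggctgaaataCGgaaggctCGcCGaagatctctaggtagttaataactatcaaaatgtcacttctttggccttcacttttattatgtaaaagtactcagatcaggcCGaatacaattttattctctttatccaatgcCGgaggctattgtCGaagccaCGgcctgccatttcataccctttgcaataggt
MEST downstream start, chr7:130491835-130492084: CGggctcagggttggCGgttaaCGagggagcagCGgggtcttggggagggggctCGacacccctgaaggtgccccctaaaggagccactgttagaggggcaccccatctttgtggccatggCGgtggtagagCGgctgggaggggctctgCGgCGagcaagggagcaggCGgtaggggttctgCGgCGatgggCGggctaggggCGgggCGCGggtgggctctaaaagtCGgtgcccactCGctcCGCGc
The upstream window holds 9 CpG and is 44.0% G or C, and the downstream window holds 20 CpG and is 69.6% G or C. Windows of the other starts, not printed, hold 20, 11 and 16 CpG in order of position, at 62%, 46.8% and 68.4% G or C. Of 35116 RefSeq windows of this length 54.1% hold at least 9 CpG and 32.4% at least 20, and the median is 11. CpG was searched as CG, which reads the same on both strands. Only MEST, PLAGL1, H19 and MEG3, 4 of the 10 genes, matched an entry in the promoter table used here.

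MEST had the largest difference between the lines of the 5 tested genes. In untreated cells it stood at 41.97, 63.3 and 67.7 CPM in CTL and at 7.95, 18.6 and 19.1 in DKD libraries. With TNFα it stood at 47.4, 62.1 and 60.3 CPM in CTL and at 8.77, 18.6 and 17.9 in DKD libraries. Every DKD library lay below every CTL library, and both DKD libraries numbered 1 were at less than the others of their group, as was each CTL library numbered 1. Of all genes, 21.7% also did not overlap between the lines untreated and 25.4% with TNFα, in either direction.

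In DKD cells MEST was at 26.4% of the CTL mean untreated and at 26.6% with TNFα. The log2 fold change was -1.92 untreated (SE 0.36, adjusted p = 0.0103) and -1.91 with TNFα (SE 0.36, adjusted p = 0.00892). It was the 1 of 5 genes called in each comparison of the lines, where 1.86% of all genes were called lower and 3.13% higher untreated, and 2.30% and 3.94% with TNFα. Without both DKD libraries numbered 1 it was -1.61 (adjusted p = 0.00100) and -1.63 (adjusted p = 8.06e-04), and it passed whichever single library was left out. With the 2 untreated groups alone it missed the threshold (-1.92, adjusted p = 0.0561). TNFα did not move MEST beyond the spread: 98.2% of the untreated mean in CTL (log2 fold change -0.03, 95% interval -0.79 to 0.73) and 98.99% in DKD cells (-0.02, -0.79 to 0.76).

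IGF2 (chromosome 11, 2129117 to 2149566, minus strand) encodes insulin-like growth factor 2, the main growth factor of the fetus, which signals through the receptors IGF1R and INSR and is cleared by IGF2R. It stood at 749, 1843 and 983 CPM in untreated CTL cells, and at 791, 1047 and 755 with TNFα. In DKD cells it stood at 535, 951 and 517 CPM untreated and at 377, 545 and 293 with TNFα. The library numbered 2 was the highest in all 4 groups, and the coefficient of variation within a group was 18.4% to 48.3%, against 14.2% to 41.4% for MEST and at most 16.03% for PEG10, PEG3 and SGCE. The read-through gene INS-IGF2, which overlaps IGF2, was listed at 0 in every library.

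The DKD mean of IGF2 was 56.0% of CTL untreated and 46.8% with TNFα. The log2 fold change was -0.84 untreated (SE 0.35, adjusted p = 0.252) with overlapping groups, and -1.09 with TNFα (SE 0.35, adjusted p = 0.108) with groups that did not overlap, which 25.4% of all genes also showed. In pairs of equal number IGF2 was lower in DKD cells in 3 of 3 pairs of each treatment, by -0.48 to -0.95 untreated and -0.94 to -1.36 with TNFα. The blocked fit called both differences (-0.81, SE 0.15, adjusted p = 0.00426, and -1.13, SE 0.15, adjusted p = 5.21e-04). Without the untreated CTL library numbered 2 the untreated value was -0.38 (adjusted p = 0.707), and without the untreated DKD library numbered 2 it was -1.18 (adjusted p = 0.1403), both by the fit with no block.

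With TNFα, IGF2 was at 72.5% of the untreated mean in CTL and at 60.6% in DKD cells, neither of which passed the unblocked test (log2 fold change -0.46, SE 0.35, adjusted p = 0.657, and -0.72, SE 0.35, adjusted p = 0.546). Libraries numbered 2 weighed on both: without the untreated CTL one the first was -0.030, and without the untreated DKD one the second was -0.38. The blocked fit called the fall in DKD cells (-0.70, SE 0.15, adjusted p = 0.0156), where 3 of 3 pairs were lower. In CTL cells 2 of 3 pairs were lower, and it did not pass there (-0.38, SE 0.15, adjusted p = 0.124). The difference between these responses was -0.26 with a 95% interval of -1.35 to 0.83, too wide to tell equal from unequal responses.

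PEG3 (chromosome 19, 56810082 to 56840726, minus strand) encodes a zinc finger protein known for roles in growth and maternal behaviour in mice. It stood at 1542, 1868 and 1734 CPM in untreated CTL cells and at 2135, 1943 and 1847 with TNFα. In DKD cells it stood at 1352, 1481 and 1304 CPM untreated and at 1840, 1795 and 1564 with TNFα. With TNFα the DKD libraries lay above all untreated DKD libraries, while the CTL groups overlapped. In both treatments the DKD libraries lay below the CTL libraries. Of all genes tested 21.7% did not overlap, in either direction, between the untreated lines, 25.4% between the treated lines, 25.1% for TNFα in CTL and 12.3% in DKD cells. ZIM2, which shares its start with PEG3, was counted at 61 to 122 per library, or 1.46 to 2.98 CPM, against 1304 CPM or more for PEG3.

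No PEG3 difference passed the unblocked test. The log2 fold change with TNFα was 0.33 in DKD cells (SE 0.09, adjusted p = 0.142) and 0.20 in CTL cells (SE 0.09, adjusted p = 0.361), and higher in 3 of 3 pairs of each line. In CTL cells pair 1 was at 0.47 and the others at 0.06 and 0.09, and the value was 0.068 with replicates 2 and 3 alone, 0.13 without untreated replicate 1 and 0.12 without treated replicate 1. The blocked fit called it higher in DKD cells (adjusted p = 0.0314) and not in CTL cells (adjusted p = 0.130), and the interaction was 0.13 (95% interval -0.16 to 0.41). Between the lines it was -0.31 untreated (SE 0.09, adjusted p = 0.0891) and -0.19 with TNFα (SE 0.09, adjusted p = 0.320). The blocked fit and DESeq2 called the untreated difference (adjusted p = 0.0218 and 0.0293), and the blocked fit did not call the other (adjusted p = 0.129).

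**Figure D2:**
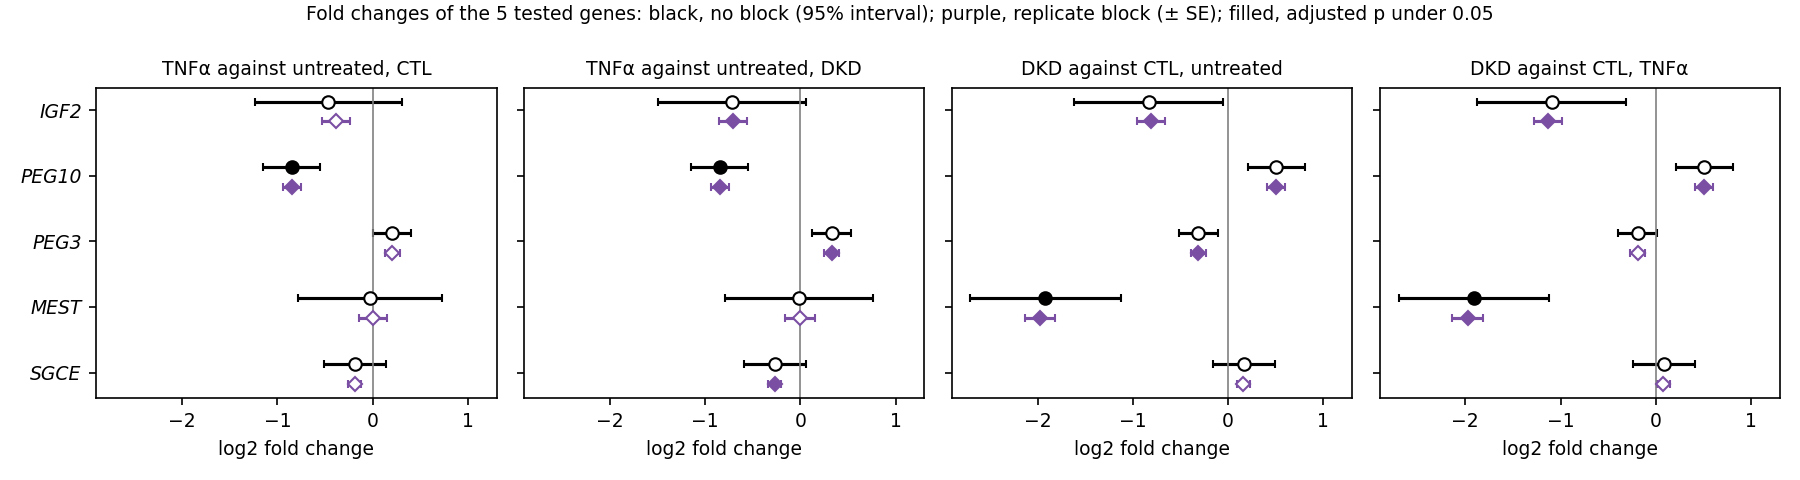
Log2 fold changes (horizontal axes) of the 5 tested genes in the 4 pairwise comparisons; black circles are the fit with no block with 95% intervals, purple diamonds the blocked fit ± SE, and filled symbols have an adjusted p under 0.05. Without the block PEG10 is filled for TNFα and MEST for the lines; with it IGF2 and PEG10 are filled for the lines in both treatments.

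Counted together, the 5 tested genes went different ways. In the blocked fit the untreated lines differed in 4 of them, with IGF2, MEST and PEG3 lower and PEG10 higher, where 7.31% of all genes were called lower and 9.17% higher. With TNFα 3 differed (IGF2 and MEST lower, PEG10 higher), against 8.79% and 10.6% of all genes. For TNFα in DKD cells the blocked fit called 4 (IGF2, PEG10 and SGCE lower, PEG3 higher), against 2.13% and 5.55%, and in CTL cells it called PEG10 alone, against 4.70% lower and 7.94% higher. The median log2 fold change of the 5 genes was -0.31 for the untreated lines and -0.19 with TNFα, beside 0.01 and 0.00 over all genes tested. For TNFα it was -0.19 in CTL and -0.27 in DKD cells, beside 0.00 and -0.01. The comparisons share libraries, and these shares are not independent of each other.

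No difference between the lines in the response to TNFα passed the test for the 5 genes. EdgeR's test called 0 of 5 for the interaction, with 0 at an unadjusted p under 0.05, and DESeq2 also called 0. Over all 16118 genes edgeR called 0 (0% higher and 0% lower), with 184 at an unadjusted p under 0.05, and DESeq2 called 5. The widest 95% intervals were those of IGF2 and MEST (-1.07 to 1.09), which leaves room for sizeable differences.

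**Figure D3:**
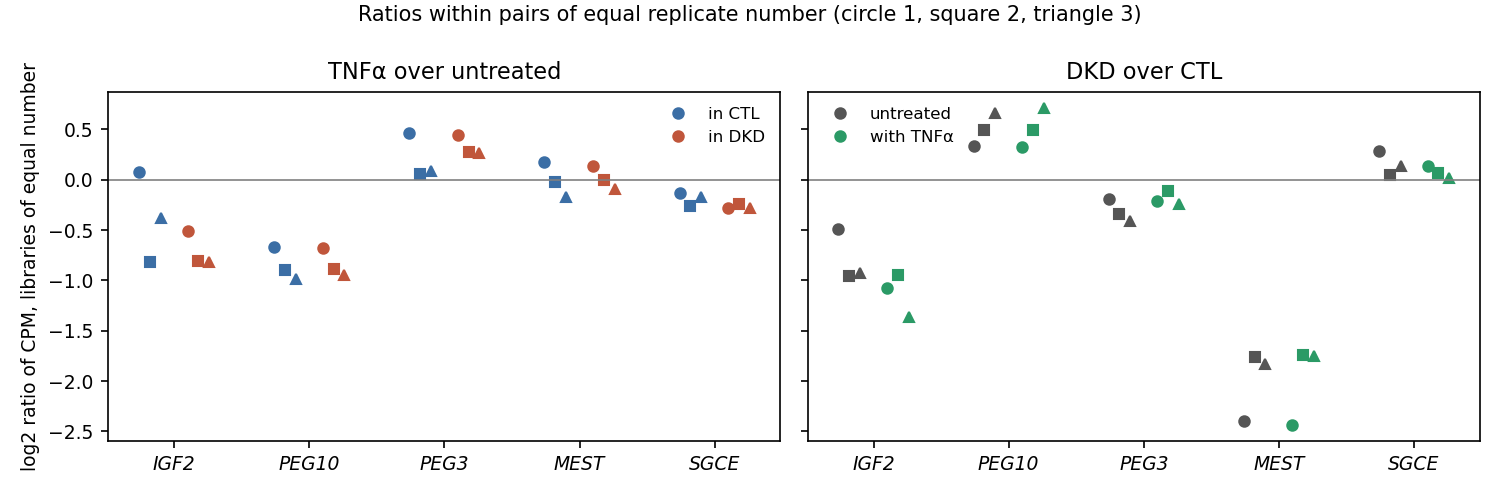
Log2 ratio of CPM between libraries of equal replicate number (vertical axis) for each tested gene, TNFα over untreated on the left and DKD over CTL on the right; shape gives the replicate number and colour the line or treatment. PEG10 lies below 0 in all 6 TNFα pairs and above 0 in all 6 line pairs, and MEST lies between -2.43 and -1.74 in the line pairs.

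The 3 other genes with a row were at or near 0. DLK1 (chromosome 14, 100726892 to 100738224), an inhibitory Notch ligand found on fetal liver cells, had 0 of 481088349 counts, which allows up to 0.00624 CPM (3 counts, covering counting error only). CDKN1C (chromosome 11, 2883218 to 2885775), the cyclin-dependent kinase inhibitor p57, had 0 counts in all 6 CTL libraries. In DKD libraries it had 6, 1 and 1 counts both untreated and with TNFα. Summed over a group this was 2.51 times untreated, and 2.69 times with TNFα, the level of the 3 counts that a sum of 0 allows in CTL cells. The counting error of the DKD sums is not included, so these ratios are not lower bounds. Most of these counts came from the DKD libraries numbered 1. Without them 2 counts were left in each treatment over 2 libraries, where the floor is 3 counts over 3 libraries. PLAGL1 (chromosome 6, 143940300 to 144064599), a zinc finger transcription factor, had 1 to 12 counts a library, and its group sums were 12 to 19, so no difference was detectable at this depth.

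Compared per length, as CPM per kilobase of merged exons (GENCODE 29, GRCh38), untreated CTL cells held 260 ± 30.8 of PEG10, 180 ± 17.2 of PEG3, 171 ± 82.5 of IGF2, 16.996 ± 4.06 of MEST and 5.23 ± 0.480 of SGCE (SD, n = 3). The ranges of PEG3 and IGF2 overlapped, as did those of IGF2 and PEG10, and the others did not. With TNFα the CTL order was PEG3 at 208 ± 15.5, PEG10 at 145 ± 18.7, IGF2 at 124 ± 22.8, MEST at 16.7 ± 2.37 and SGCE at 4.60 ± 0.507, and only PEG10 and IGF2 overlapped. In untreated DKD cells it was PEG10 at 370 ± 58.6, PEG3 at 145 ± 9.61, IGF2 at 95.7 ± 35.2, SGCE at 5.87 ± 0.941 and MEST at 4.49 ± 1.86, with overlap of SGCE and MEST and none of PEG3 and IGF2. In DKD cells with TNFα the order of levels was PEG10 at 206 ± 17.5, PEG3 at 182 ± 15.5, IGF2 at 58.0 ± 18.3, SGCE at 4.87 ± 0.742 and MEST at 4.44 ± 1.61. There PEG10 and PEG3 overlapped, at 190.0 to 225 and 165 to 194, and so did MEST and SGCE. Merged exons are longer than most transcripts of a gene, so these levels are approximate.

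Over the 12 libraries, the genes whose log2 CPM was most like that of IGF2 among 10922 searched were HK2 (a hexokinase, Pearson r = 0.954), ALDOC (an aldolase, 0.937), OTUD6B (0.927), PAXBP1 (0.926) and TAF2 (a subunit of the general factor TFIID, 0.886). HK2 stood at 182 and 143 CPM in CTL and at 129 and 96.2 in DKD cells, without and with TNFα. Those most like PEG10 were GABRE (a GABA receptor subunit, r = 0.969), TIMM8A (a mitochondrial import protein, 0.966), ANXA9 (an annexin, 0.957), WBP11 (a splicing protein, 0.945) and TF (transferrin, 0.939). TF stood at 2605 and 1459 CPM in CTL and at 3255 and 2062 in DKD cells, without and with TNFα. All these points share libraries, groups and scaling factors, and the values only describe likeness.

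Around IGF2, 19 of 25 listed genes of the IGF axis were tested. The lines differed in 3 of them in each treatment, 2 higher and 1 lower in DKD cells, where 3.13% of all genes were higher and 1.86% lower untreated, and 3.94% and 2.30% with TNFα. IGF2BP3, an RNA-binding protein that binds IGF2 mRNA, was higher in DKD cells untreated (154 ± 10.6 against 112 ± 2.50 CPM, log2 fold change 0.46, SE 0.08, adjusted p = 0.00813) and with TNFα (0.37, adjusted p = 0.0228). IGFBP7, a secreted binding protein, was lower at low levels (0.403 ± 0.233 against 2.39 ± 0.550 CPM untreated, log2 fold change -2.54, adjusted p = 0.0166, and -2.61 with TNFα, adjusted p = 0.0106). Leaving out each of the 12 libraries in turn kept the untreated call of IGF2BP3 in 12 of 12 fits and that of IGFBP7 in 10, and with TNFα in 8 and 12.

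Among the receptors and their adaptors, IRS1, which carries the signal of the insulin and IGF receptors, was higher in untreated DKD cells (0.67, SE 0.17, adjusted p = 0.0433) and INSR, the insulin receptor gene, in treated ones (0.51, SE 0.12, adjusted p = 0.0323). Those calls held in 3 and 6 of the 12 fits that left out 1 library. Without both DKD libraries numbered 1 IRS1 was at 0.47 (adjusted p = 0.0265) and INSR at 0.38 (adjusted p = 0.0131). In that setting 2 of the 19 genes were higher and 1 lower untreated, and 3 and 1 with TNFα. Of all 16283 genes tested there, 827 were higher and 557 lower untreated, and 937 and 564 with TNFα. In the blocked fit IGF1R, INSR, IRS1 and IGF2BP3 were higher in both treatments, and IGF1R had log2 fold changes of 0.26 (adjusted p = 0.0478) and 0.45 (adjusted p = 0.00277). That fit also called IGFBP7 lower in both treatments and IGFBP6 lower with TNFα (-1.29, adjusted p = 0.0238). Untreated this is 4 of 19 higher and 1 lower, against 9.17% and 7.31% of all genes. With TNFα it is 4 higher and 2 lower, against 10.6% and 8.79%. The median of the list was 0.00 untreated and 0.08 with TNFα, close to all genes. With TNFα the unblocked fit called 0 of 19 in either line. Over all genes it called 1.90% higher and 0.726% lower in CTL, and 1.54% and 0.254% in DKD cells. At an unadjusted p under 0.05 were 3 in CTL and 2 in DKD cells, a share not counted over all genes. DESeq2 called 1 of the 19 in CTL and 0 in DKD cells. Over all 16118 genes it called 632 higher and 392 lower in CTL, and 488 and 163 in DKD cells. The blocked fit called IGF2R, the clearance receptor, higher in CTL (0.31, adjusted p = 0.0269) and DKD cells (0.32, adjusted p = 0.0351). It also called IGFALS higher in both lines, and the binding protein gene IGFBP1 in CTL cells (2.26, adjusted p = 0.0362). That is 3 of 19 higher in CTL and 2 in DKD cells, against 7.94% and 5.55% of all genes. None was called lower, against 4.70% and 2.13%. In DKD cells IGFBP1 was at 0.98 in the blocked fit (adjusted p = 0.399). Its interaction was not called (unblocked fit -1.05, 95% interval -3.12 to 1.02), so its response is not shown to belong to 1 line.

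Of 53 other genes reported as imprinted in some tissue 11 have no row and are not analysed here, and 26 were tested. Untreated, 1 was higher and 1 lower in DKD cells, and the same counts held with TNFα (blocked fit 5 and 1 untreated, 5 and 3 with TNFα). Over all genes the shares were 3.13% and 1.86% untreated and 3.94% and 2.30% with TNFα (blocked fit 9.17% and 7.31%, 10.6% and 8.79%), so 1 gene of 26 in a direction is near the background. GNAS, the gene of the stimulatory G protein alpha subunit, was higher untreated (438 ± 104 against 261 ± 18.4 CPM, log2 fold change 0.75, SE 0.17, adjusted p = 0.0281) and with TNFα (0.72, SE 0.17, adjusted p = 0.0285). It was at 0.94 and 0.86 without both DKD libraries numbered 1, and its calls held in 6 and 5 of the 12 fits that left out 1 library. ATP10A, a phospholipid flippase, was lower untreated (-0.39, SE 0.10, adjusted p = 0.0458) and with TNFα (-0.52, SE 0.10, adjusted p = 0.00865), calls that held in 1 and 12 of those fits. TNFα raised ATP10A in CTL (0.66, SE 0.10, adjusted p = 0.00501) and DKD cells (0.52, SE 0.10, adjusted p = 0.0219), the RNA-binding protein gene ZC3H12C in CTL cells (0.73, adjusted p = 0.0277) and the potassium channel gene KCNQ1 in DKD cells (from 0.191 to 0.685 CPM, 1.83, adjusted p = 0.0223). The blocked fit called ZC3H12C (0.64, adjusted p = 0.00143) in DKD cells and KCNQ1 (1.54, adjusted p = 0.0351) in CTL cells as well, so neither response is shown to belong to 1 line. It called 6 of the 26 higher and 4 lower with TNFα in CTL cells, and 6 and 2 in DKD cells, against 7.94% and 4.70%, and 5.55% and 2.13%, of all genes. Of the unblocked TNFα calls, that of ATP10A in CTL cells held in 12 of 12 fits without 1 library, that in DKD cells in 8, ZC3H12C in 4 and KCNQ1 in 5, and KCNQ1 was not called without both DKD libraries numbered 1 (adjusted p = 0.0769). The median of the list was 0.00 and 0.13 for the lines without and with TNFα.

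**Figure D4:**
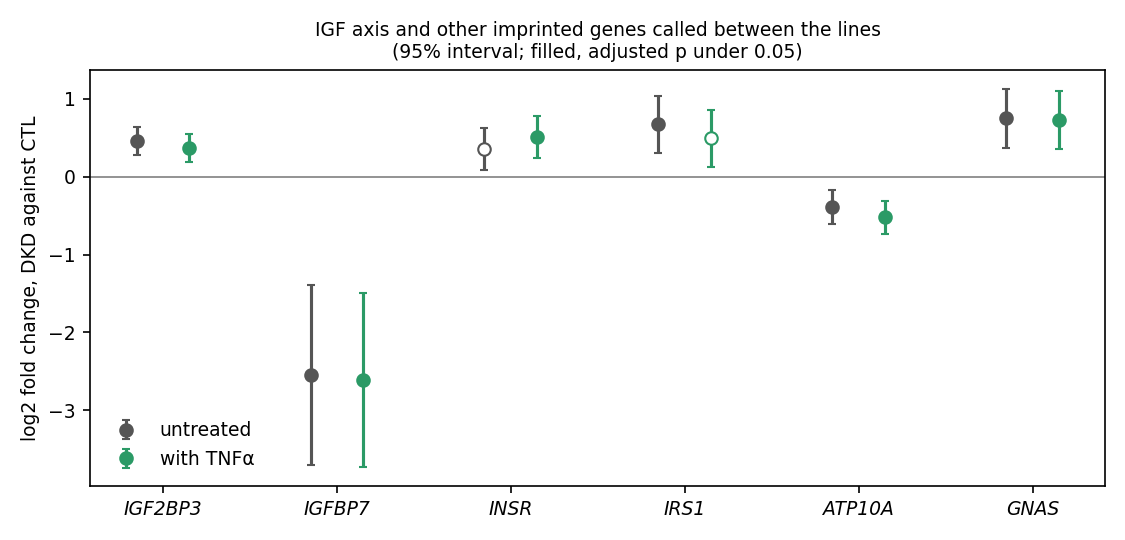
Log2 fold changes of DKD against CTL cells (vertical axis) for the 6 genes of the IGF axis and of the other imprinted genes that were called between the lines, untreated (grey) and with TNFα (green), with 95% intervals and filled symbols for an adjusted p under 0.05. IGFBP7 and ATP10A lie below 0 and the other 4 above it.

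Of 30 regulators of imprinting and DNA methylation 26 were tested, and 2 were lower in DKD cells untreated and 1 with TNFα, where 1.86% and 2.30% of all genes were. SMC3, a cohesin subunit, was lower in DKD cells untreated (139 ± 8.54 against 204 ± 16.1 CPM, log2 fold change -0.56, SE 0.10, adjusted p = 0.00755) and with TNFα (-0.51, adjusted p = 0.0108). CBX5, which encodes HP1 alpha, was lower untreated (-0.38, SE 0.09, adjusted p = 0.0343). The SMC3 calls held in 12 of 12 fits without 1 library and without both DKD libraries numbered 1, while that of CBX5 held in 2 of 12 and was lost without both (adjusted p = 0.0582). The blocked fit added the DNA methyltransferase gene DNMT3A, lower in both treatments (-0.22, adjusted p = 0.0187, and -0.19, adjusted p = 0.0327), and DNMT3B, higher with TNFα (0.85, adjusted p = 0.0166). The DNMT3B groups overlapped (33.3 ± 11.4 against 18.2 ± 5.56 CPM), and the unblocked adjusted p was 0.461. Blocked calls were 0 higher and 3 lower untreated, against 9.17% and 7.31% of all genes. With TNFα they were 1 and 2, against 10.6% and 8.79%. For TNFα the unblocked fit called 0 of the 26, with 2 in each line at an unadjusted p under 0.05, a share not counted over all genes. DESeq2 called 1 in each line. Over all 16118 genes it called 632 higher and 392 lower in CTL, and 488 and 163 in DKD cells. The blocked fit called 1 of 26, DNMT3A, as lower in each (-0.23 in CTL and -0.20 in DKD cells) and 0 higher. Over all genes it called 4.70% lower and 7.94% higher in CTL, and 2.13% and 5.55% in DKD cells. So 1 of 26 is near the background. The list's median was -0.08 untreated and 0.04 with TNFα for the lines.

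Among 50 genes near the members on the chromosome 33 were tested. For the lines 1 was called untreated, CPA1, a carboxypeptidase gene near MEST (0.224 against 0.0697 CPM, log2 fold change 1.63, adjusted p = 0.0383), which held in 1 of 12 fits without 1 library. With TNFα CPA1 lay the other way (0.203 against 0.454 CPM, -1.15, adjusted p = 0.0567, blocked fit 0.0301), and the gene called was UTRN, the utrophin gene near PLAGL1 (0.34, SE 0.09, adjusted p = 0.0421), which held in 3 of 12. That is 1 of 33 genes in each treatment, beside 3.13% of all genes called higher and 1.86% lower untreated, and 3.94% and 2.30% with TNFα. TNFα raised CPA1 in CTL cells (0.0697 to 0.454 CPM, 2.64, adjusted p = 0.00318), which is 1 of 33 against 1.90% of all genes called higher. CPA1 passed the filter on low counts through its treated CTL libraries, the group where it was highest. Comparisons with that group are therefore not independent of the filter. Its untreated CTL level lies close to that of single counts (1 count is 0.0238 to 0.0320 CPM). The interaction of CPA1 was not called (-2.78, adjusted p = 0.821), so the response is not shown to belong to 1 line. In DKD cells the unblocked fit called 0 of 33 for TNFα, against 1.54% of all genes higher and 0.254% lower. At an unadjusted p under 0.05 were 2, a share not counted over all genes. DESeq2 called 1, where it called 488 higher and 163 lower of all 16118 genes. The blocked fit called UTRN higher in DKD cells (0.29, adjusted p = 0.0226), 1 of 33 against 5.55% of all genes. In CTL cells it called 5 of the 33 higher and 2 lower with TNFα, against 7.94% and 4.70% of all genes. For the lines it called 5 neighbours higher and 2 lower untreated, against 9.17% and 7.31% of all genes, and 5 and 5 with TNFα, against 10.6% and 8.79%.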

How the data were processed

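RNA-seq of 12 HepG2 libraries, 3 in each of 4 groups taken from the titles, was analysed from 2 tables. The deposited table of raw counts holds estimated counts per gene that are whole numbers. Salmon 0.14.0, CASAVA 1.7, DESeq2 and GRCh38 are named, with no role given, in the submitters' processing notes. For the annotation, the step from transcripts to genes and the use of strand, the setting is not given in the sources used here. The deposited normalized signal is these counts divided by 1 size factor per library, and it was used only for that check. All 12 sample columns were matched by name.

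Genes were filtered with filterByExpr (minimum count 10, minimum total 15), scaled with TMM and tested with edgeR 4.0.16 (limma 3.58.1, R 4.3.3) by glmQLFTest in 1 model of the 4 groups (8 residual degrees of freedom), with Benjamini-Hochberg adjustment over 16118 genes and calls at an adjusted p under 0.05. Standard errors are the log2 fold change over the square root of F, and intervals are 95%. CPM use the table's totals times the TMM factor, so 1 count is 0.0238 to 0.0320 CPM; sums over a group and floors use the totals alone. The scripts were tested on simulated data. Same-numbered libraries deviated together in 12 of 12 pairs (r over 0.1), which is the only source of the pairing, since the labels give numbers with no meaning. Deviations from a group mean cancel within the group, so the 12 values are not independent. A shift shared by the libraries numbered 1 alone would make r positive for the other numbers too. Libraries of unlike number were not compared, so a pairing of the other numbers is assumed in the blocked fit. Floors of 3 counts cover counting error only.

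All 10 members are named, with the called genes of each list (up to 4 per comparison, by p), those that only the blocked fit called being chosen after their values were seen, and the 5 genes most correlated with IGF2 and PEG10 among those with an average log2 CPM of at least 2. The members and lists were chosen with earlier results of these data known. Alternatives were no filter, DESeq2 1.42.0 on the same genes, RLE size factors, the replicate block, the 2 groups alone, replicates 2 and 3 alone, each library left out and, chosen after seeing the data, no DKD libraries numbered 1; the last 2 were also run for the lists, where leaving out libraries was chosen after seeing the data. Promoter windows are from RefSeq on GRCh38.p14, as are gene positions.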

Additional observations from a re-analysis of the deposited data

How the results depend on the processing

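Of the 5 tested genes, 1 was called for TNFα in CTL cells under every alternative and 0 for the interaction. For TNFα in DKD cells the replicate block gave 4, the 2 groups alone 0, and leaving out single libraries 0 to 1. For the untreated lines DESeq2 gave 3, the replicate block 4, the 2 groups alone 0, replicates 2 and 3 alone 3, the fit without both DKD libraries numbered 1 gave 2, and leaving out single libraries 1 to 2. For the lines with TNFα DESeq2, the block and the 2 groups alone gave 3 each, replicates 2 and 3 alone 2, the fit without both DKD libraries numbered 1 gave 2, and single libraries left out 1 to 2. The block changed no other call than those given above. DESeq2 also called IGF2 between the treated lines (adjusted p = 0.0246), PEG10 between the lines in both treatments and PEG3 untreated. Over all values of the 5 genes, 420 kept direction and call, 21 gained a call, 3 lost one and 26 changed sign, all of them uncalled. The sign changed with the replicate block for MEST with TNFα in CTL (0.0035) and its interaction (-0.0054), and without both DKD libraries numbered 1 for SGCE between lines with TNFα (-0.041) and for the interactions of PEG10 (-0.063) and MEST (-0.021). With single libraries left out the values that changed sign ranged from -0.21 to 0.087 for MEST with TNFα in CTL, -0.34 to 0.26 in DKD cells, and -0.046 to 0.17 for SGCE between lines with TNFα. The interactions ranged from -0.71 to 0.087 for IGF2, -0.13 to 0.10 for PEG10, -0.30 to 0.28 for MEST and -0.21 to 0.043 for SGCE. Over all genes tested, calls higher and lower were 306 and 117 for TNFα in CTL (DESeq2 632 and 392, block 1279 and 758, 2 groups alone 474 and 217), 248 and 41 in DKD cells (488 and 163, 894 and 343, 39 and 2), 504 and 299 for the untreated lines (812 and 622, 1478 and 1179, 210 and 122) and 635 and 370 for the treated lines (1022 and 730, 1716 and 1417, 532 and 280). Replicates 2 and 3 alone gave 1271 and 954, 913 and 447, 1155 and 828, and 1384 and 991 in that order. Without both DKD libraries numbered 1 they were 839 and 561, 362 and 104, 827 and 557, and 937 and 564. With single libraries left out the fewest were 115 and 34 (without untreated CTL replicate 3), 112 and 15 (treated DKD 3), 255 and 168 (untreated CTL 3) and 359 and 213 (treated CTL 2), and the most 482 and 227, 270 and 87, 581 and 336, and 944 and 601, all without untreated DKD replicate 1. Without both DKD libraries numbered 1 TNFα in CTL cells gave 3 higher and 1 lower of 19 genes of the IGF axis. It gave 5 and 1 of 26 other imprinted genes, 0 and 2 of 26 regulators and 3 and 1 of 34 neighbours. These stand beside 839 higher and 561 lower of all 16283 genes tested in that setting. The cause of these changes was not tested. Depth limits CDKN1C, PLAGL1 and DLK1.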
